A study of Homo sapiens with 6 samples.

Results

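The genes described here are 8 genes of cholesterol synthesis and its control by sterol regulatory element-binding proteins (SREBPs), namely SREBF1, SREBF2, INSIG1, HMGCS1, IDI1, FDFT1, SQLE and DHCR7. They were chosen by name, and each of the 8 was found once among the 32364 Ensembl genes of the deposited table. The table holds FPKM values, which are fragments scaled by exon length and library size, of 6 mRNA libraries from Kasumi-1, a line of acute myeloid leukemia with the RUNX1-RUNX1T1 fusion gene. There are 3 control libraries and 3 from cells incubated with 0.5 µM I13, an inhibitor of histone deacetylases, for 48 h. The study's methods name the solvent DMSO at the concentration of the I13 solution as the control. The study describes its sequencing figures as representative of independent experiments, but the labels do not say whether the replicates deposited here were grown separately. If they were not, the p-values measure only technical spread between these libraries. In bulk RNA, fewer cells that express a gene and less of its RNA per cell cannot be told apart.

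Cholesterol is made from acetyl-CoA through mevalonate, isoprenoid units, squalene and lanosterol. SREBP1 and SREBP2, the products of SREBF1 and SREBF2, are transcription factors held in the membrane of the endoplasmic reticulum by INSIG proteins while sterols are plentiful, and they are cut free and enter the nucleus when sterols run low. SREBP2 acts mainly on genes of cholesterol synthesis and uptake, and the SREBP1c form acts mainly on genes of fatty acid synthesis. INSIG1 is itself a target of the SREBPs, so its mRNA follows the activity of the pathway.

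All 8 genes were expressed in every library, and none differed between I13 and control at an adjusted p under 0.05. SREBF1 was the gene with the largest difference, with 0.816 of the control level after I13, and the only member whose control and I13 values did not overlap. The log2 fold changes of all 8 genes were below 0, and the other 7 genes stood at 0.914 to 0.982 of the control level.

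Control depth lay between 16566742 and 17221345 fragments per library and I13 depth between 15281052 and 16682550, as recovered from the steps of the FPKM values. On the first principal component of the 4133 genes that averaged 10 FPKM or more, which carried 43.3% of the variance, control replicate 3 and I13 replicate 2 stood apart from the other 4 libraries. The labels name no batch. The differences of the 8 members are therefore also given within the 4 libraries (control replicates 1 and 2, I13 replicates 1 and 3) and within this pair. The members were among the genes of this component, so the split was read from values that include theirs. Counts within the 4 libraries, for the members and for the lists, are descriptions and give no separate support. No replicate duplicated another of its group, since the chi-square per gene of 2 replicates of a group was 3.09 at the lowest, against about 1 from counting noise. The 10 myeloid and t(8;21) markers examined, MPO, KIT and RUNX1T1 among them, were all at 1 FPKM or more in all 6 libraries. Of the markers examined, CD33 (0.20 on the log2 scale) and ANPEP (0.35), both myeloid, and the T cell gene CD3D (-0.90) had an unadjusted p under 0.05 by limma, and none an adjusted one. Of the genes of other cell types examined, 3 of 4 stromal genes were at 0 throughout, the 6 T and NK cell genes summed to between 0.967 and 1.51 FPKM in control and between 0.469 and 0.887 FPKM in I13 libraries, and the 4 erythroid genes in the table reached 0.201 FPKM at most. The part of these genes in the results was not tested. The 3 B cell genes in the table summed to between 4.44 and 5.91 FPKM, from CD79A and CD79B. EPCAM was the epithelial marker at 1 FPKM or more, and the 2 epithelial genes in the table summed to between 20.8 and 26.5 FPKM in both groups.

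SREBF2 (ENSG00000198911) lies on the plus strand of chromosome 22 from 41833079 to 41907308 and SREBF1 (ENSG00000072310) on chromosome 17, minus strand, 17810399 to 17837002 (GRCh38, GENCODE release 29). Each gene holds a microRNA in an intron, MIR33A in SREBF2 and MIR33B in SREBF1, and both microRNAs are known to repress the cholesterol exporter ABCA1. The mature sequences (RefSeq, GRCh38.p14) are shown because the results on both host genes follow, and bases 2 to 8, the seed, are in capitals.
hsa-miR-33a-5p, 22:41900949-41900969, plus strand: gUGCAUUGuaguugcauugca
hsa-miR-33b-5p, 17:17813897-17813916, minus strand: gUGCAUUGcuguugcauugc
Both microRNAs share the seed UGCAUUG. Libraries of mRNA do not measure mature microRNAs. The row for MIR33B held 1 fragment in 1 library (0.605 FPKM in control replicate 1) and 0 in the other 5, and no value for MIR33A was analysed here.

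The promoters are shown because the letters of the sterol regulatory element, to which SREBPs bind, could be looked for in them. RefSeq promoter windows were found for 6 of the 8 genes, 10 windows in all, and the 250 bases before each start site were searched on both strands. The letters TCACNCCAC were searched as a loose form of the sterol regulatory element, CCAAT as the letters bound by NF-Y, CACGTG as an E-box and GGGCGG as a GC box. In the sequences below, the bases that lie outside the GENCODE gene are printed, with matches to the first 3 of these motifs in capitals, and with the base before the loose form also in capitals (CCAAT on the other strand reads ATTGG).
SREBF2, 22:41832855-41833078, plus strand: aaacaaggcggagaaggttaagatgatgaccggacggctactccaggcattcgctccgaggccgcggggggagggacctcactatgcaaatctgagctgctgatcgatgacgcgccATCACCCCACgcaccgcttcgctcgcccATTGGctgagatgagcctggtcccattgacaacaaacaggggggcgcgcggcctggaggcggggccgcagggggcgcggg
SREBF1, 17:17837003-17837236, minus strand: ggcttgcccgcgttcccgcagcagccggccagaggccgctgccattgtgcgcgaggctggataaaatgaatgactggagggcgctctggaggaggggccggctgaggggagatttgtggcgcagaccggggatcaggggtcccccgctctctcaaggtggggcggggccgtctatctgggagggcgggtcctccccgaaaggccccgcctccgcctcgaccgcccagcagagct
HMGCS1, 5:43313513-43313662, minus strand: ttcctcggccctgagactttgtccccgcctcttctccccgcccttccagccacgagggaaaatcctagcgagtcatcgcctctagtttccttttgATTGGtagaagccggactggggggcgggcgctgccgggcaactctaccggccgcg
INSIG1, 7:155297628-155297775, plus strand: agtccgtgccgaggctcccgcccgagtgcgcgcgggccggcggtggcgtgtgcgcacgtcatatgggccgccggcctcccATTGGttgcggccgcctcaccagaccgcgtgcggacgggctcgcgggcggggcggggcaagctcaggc
The loose form was found in 1 of the 6 genes, SREBF2, at position -133 from the RefSeq start, and in 310 of the 35116 promoter windows of the whole RefSeq table (0.883%). With the base before it, the site in SREBF2 reads ATCACCCCAC, and these 10 letters, taken from SREBF2 itself, are in 12 of all windows (0.0342%). CCAAT was found in 5 of the 6 genes, all but SREBF1, and in 6 of their 10 windows, against 32.0% of all windows. SREBF1 had 1 window, at the start of the gene, so any start site further inside it was not searched. In HMGCS1 a second CCAAT match lay just past the printed stretch, and in INSIG1 a CACGTG match at position -55 lay past it too. CACGTG is in 6.34% of all windows. GGGCGG was found in all 6 genes and in 42.6% of all windows. Counts of genes, some of which have several windows, are not on the same scale as these shares of windows. A match is a description of the letters only, and the absence of a match says nothing of whether a factor binds.

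SREBF1 was lower with I13 at an unadjusted p under 0.05. Its FPKM was 11.1, 12 and 10.5 in control replicates 1, 2 and 3 and 8.07, 10.25 and 9.08 in I13 replicates 1, 2 and 3. Every I13 library was below every control library, although the highest I13 value, in replicate 2, lay just under the lowest control value, in replicate 3. The mean was 11.2 ± 0.754 FPKM (SD, n = 3) in control and 9.13 ± 1.09 FPKM (SD, n = 3) in I13 libraries. Between 1032 and 1654 fragments lay behind each value. I13 differed from control by -0.30 on the log2 scale (standard error 0.099), and the 95% interval of the ratio of I13 to control was 0.693 to 0.958. The unadjusted p was 0.0199 and the adjusted p 0.890 by limma over 18726 genes, and the difference did not reach the study's fold threshold of 0.58 on the log2 scale. Among all genes tested, 2.59% were lower at an unadjusted p under 0.05, while 9.52% did not overlap in either direction and 4.64% were lower without overlap. In an exact two-sided permutation test p was 0.1, the smallest that 3 libraries against 3 allow.

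In the 4 libraries the log2 difference was -0.43, and between control replicate 3 and I13 replicate 2 it was -0.036. When 1 library at a time was dropped, the log2 fold change stayed between -0.38 and -0.21, and the unadjusted p rose to 0.0573 when control replicate 1 was dropped, to 0.0814 for control replicate 2, to 0.0637 for I13 replicate 1 and to 0.0648 for I13 replicate 3. By limma's voom on the recovered fragments the unadjusted p was 0.00185 and the adjusted p 0.394. A voom fit with a term for the pair, added once the values were known, gave an adjusted p of 0.0357. That fit called 87 of all genes at the adjusted p, against 5 by voom without the term, and the pair was read from these same libraries. The gene table does not separate the SREBP1a and SREBP1c transcripts. The gene RAI1 on the other strand overlaps the last 1055 bases of SREBF1, and it stood at 4.69 ± 0.138 FPKM (SD, n = 3) in control and 4.75 ± 0.311 FPKM (SD, n = 3) in I13 libraries. The libraries were made with a stranded kit, but the strand setting of the counting is not given in the sources used here.

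SREBF2 did not pass the test, and the I13 libraries enclosed the control libraries. It stood at 65.0, 63.7 and 65.5 FPKM in control replicates 1, 2 and 3 and at 61.7, 69.0 and 59.5 FPKM in I13 replicates 1, 2 and 3. I13 replicate 2 was the highest of the 6 and the other I13 libraries were the lowest. The means were 64.7 ± 0.914 FPKM (SD, n = 3) and 63.4 ± 4.99 FPKM (SD, n = 3). On the log2 scale I13 differed by -0.033 ± 0.062 (standard error), with a limma p of 0.606 and an adjusted p of 1.00, and with a 95% interval of the ratio from 0.883 to 1.08. With 6869 to 8701 fragments per library, counting error was 1.21% of the value at most, while the I13 libraries varied by 7.88%. SREBF2-AS1, an antisense gene that overlaps it, stood between 1.73 and 2.79 FPKM.

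**Figure D1:**
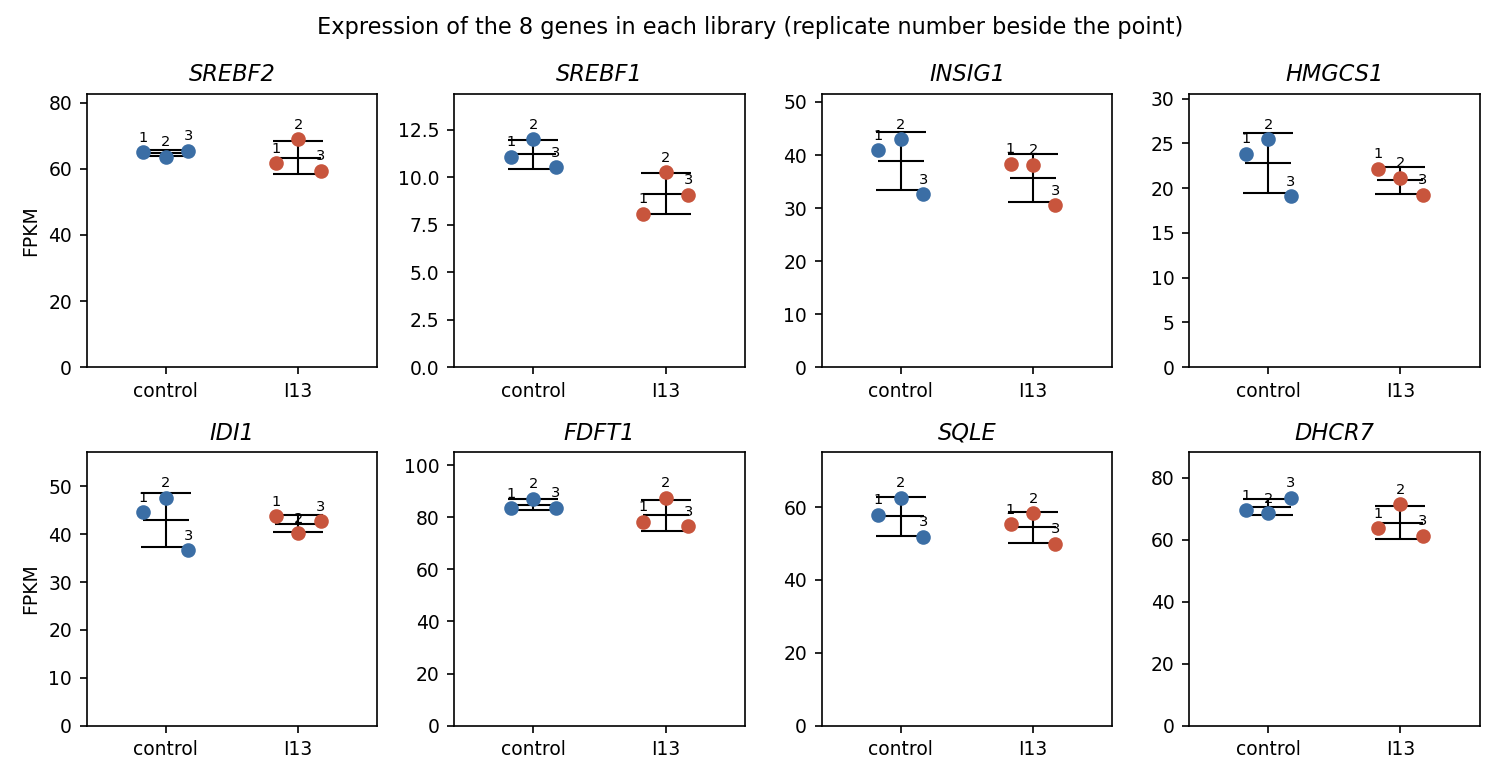
FPKM of the 8 genes (vertical axes, from 0) in the 3 control libraries (blue) and the 3 I13 libraries (red), with the replicate number beside each point and the mean ± SD in black. SREBF1 is the gene whose groups do not overlap, with control values from 10.5 to 12 and I13 values from 8.07 to 10.25 FPKM.

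The level of SREBF2 was between 5.31 and 6.23 times that of SREBF1 in the control libraries and between 6.55 and 7.64 times in the I13 libraries. The mean of this ratio of FPKM values was 5.80 ± 0.465 (SD, n = 3) and 6.97 ± 0.583 (SD, n = 3), without overlap (exact permutation test, two-sided, p = 0.1). The ratio was examined after the values of both genes had been seen.

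INSIG1 (ENSG00000186480, chromosome 7, plus strand, 155297776 to 155310235), which retains the SREBPs in the endoplasmic reticulum, stood at 40.9, 43.0 and 32.6 FPKM in control replicates 1, 2 and 3. In I13 replicates 1, 2 and 3 it stood at 38.4, 38.2 and 30.5 FPKM. The groups overlapped, and the lowest library of each group, replicate 3, was far below the others. The means were 38.8 ± 5.50 FPKM (SD, n = 3) and 35.7 ± 4.47 FPKM (SD, n = 3). By limma the log2 difference was -0.12 ± 0.13 (standard error), at a p of 0.386 before and 0.995 after adjustment. The 95% interval of the ratio, 0.746 to 1.14, was the widest of the 8 genes. INSIG2, the paralog that is not a main SREBP target, stood at 2.81 ± 0.238 FPKM (SD, n = 3) in control and 2.67 ± 0.186 FPKM (SD, n = 3) in I13 libraries. INSIG1 exceeded INSIG2 by between 10.6 and 15.7 times on the FPKM scale.

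The enzymes of the mevalonate part of the pathway, HMGCS1 and IDI1, varied among the control libraries by more than between the groups. HMGCS1 (ENSG00000112972, chromosome 5, minus strand, 43289395 to 43313512) encodes the cytosolic synthase that makes HMG-CoA. Its FPKM was 23.9, 25.5 and 19.1 in control replicates 1, 2 and 3 and 22.1, 21.1 and 19.3 in I13 replicates 1, 2 and 3. Control replicate 3 was the lowest of the 6 libraries, so the groups overlapped. By limma the log2 difference was -0.12 ± 0.11 (standard error), at a p of 0.317 before and 0.984 after adjustment, with a 95% interval of the ratio from 0.766 to 1.10. Without control replicate 3 it was -0.24 with an unadjusted p of 0.0228.
IDI1 (ENSG00000067064, chromosome 10, minus strand, 1039152 to 1049170) encodes the isomerase of isopentenyl diphosphate. It stood at 44.6, 47.7 and 36.7 FPKM in control replicates 1, 2 and 3 and at 43.8, 40.2 and 42.7 FPKM in I13 replicates 1, 2 and 3. All 3 I13 values lay between the lowest and the highest control value. IDI1 differed by -0.018 ± 0.097 (standard error) on the log2 scale, at a limma p of 0.859 before and 1.00 after adjustment, with a 95% interval of the ratio from 0.843 to 1.16, and it turned above 0 without control replicate 1 (0.013), control replicate 2 (0.061) or I13 replicate 2 (0.017). The FPKM values of IDI1 gave whole fragments with a length of 3589 bases and not with its 4345 annotated exon bases, so its level rests on the shorter length.

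The enzymes after the isoprenoid steps, FDFT1, SQLE and DHCR7, did not pass the test. FDFT1 (ENSG00000079459, chromosome 8, plus strand, 11795573 to 11839309), the squalene synthase, stood at 83.4, 87.2 and 83.7 FPKM in control replicates 1, 2 and 3 and at 78.2, 87.5 and 76.6 FPKM in I13 replicates 1, 2 and 3. I13 replicate 2 was the highest library and the other I13 libraries were the lowest. FDFT1 differed by -0.072 ± 0.060 (standard error) on the log2 scale, at a limma p of 0.272 before and 0.983 after adjustment, with a 95% interval of the ratio from 0.863 to 1.05.
SQLE (ENSG00000104549, chromosome 8, plus strand, 124998497 to 125022283), the squalene epoxidase that commits squalene to sterols, stood at 57.9, 62.6 and 51.9 FPKM in control replicates 1, 2 and 3. In I13 replicates 1, 2 and 3 it stood at 55.2, 58.3 and 49.95 FPKM. The ranges of the groups overlapped over most of their length. SQLE differed by -0.076 ± 0.085 (standard error) on the log2 scale, at a limma p of 0.405 before and 0.995 after adjustment, with a 95% interval of the ratio from 0.826 to 1.09.
DHCR7 (ENSG00000172893, chromosome 11, minus strand, 71428193 to 71452868), the reductase that turns 7-dehydrocholesterol into cholesterol, stood at 69.5, 68.6 and 73.6 FPKM in control replicates 1, 2 and 3. In I13 replicates 1, 2 and 3 it stood at 63.7, 71.5 and 61.3 FPKM. Only I13 replicate 2 lay within the control range. DHCR7 differed by -0.11 ± 0.067 (standard error) on the log2 scale, at a limma p of 0.143 before and 0.983 after adjustment, with a 95% interval of the ratio from 0.830 to 1.03. An antisense gene, AP002387.1, overlaps DHCR7 and stood at 6.03 ± 0.256 FPKM (SD, n = 3) in control and 5.26 ± 0.878 FPKM (SD, n = 3) in I13 libraries.

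Over all members, 1 of 8 passed an unadjusted p of 0.05 by limma, where 5.14% of all 18726 genes tested passed in either direction, and 0 of 8 also passed the fold threshold, against 2.38%. At the adjusted p, limma called 0 of the 8 and 0 of all genes (0%), with 963 genes at an unadjusted p under 0.05. Voom called 1 of the 8 (SREBF1) at an unadjusted p under 0.05, against 5.36% of its genes, and called 0 of the 8 and 5 of 13814 genes (0.0362%) at the adjusted p. The median log2 fold change of the members was -0.093, against 0.006 for all genes tested and 0.007 for the 4133 genes that averaged 10 FPKM or more. A fold change below 0 was found for 8 of 8 members for 48.2% of all genes tested and for 45.9% of those that averaged 10 FPKM or more. The 8 genes were measured in the same libraries and share regulators, so they are not 8 independent observations.

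For 6 of the 8 members the difference within the pair was opposite in sign to that within the 4 libraries. Within the 4 libraries, both I13 libraries were below both control libraries for all 8 genes, a pattern found for 16.9% of all genes tested and for 20.2% of the genes that averaged 10 FPKM or more. The log2 differences within the 4 libraries were between -0.43 (SREBF1) and -0.088 (SREBF2), with -0.29 for INSIG1, -0.25 for HMGCS1, -0.20 for SQLE, -0.14 for FDFT1 and DHCR7 and -0.092 for IDI1. SREBF1, FDFT1 and DHCR7 had an unadjusted p under 0.05 by limma there (3 of 8, against 4.07% of all genes lower in that fit), and 0 an adjusted one. Within the pair, 6 of the 8 genes were higher in I13 replicate 2 than in control replicate 3, where 43.3% of all genes tested were higher. The log2 differences there were 0.23 for INSIG1, 0.17 for SQLE, 0.15 for HMGCS1, 0.13 for IDI1, 0.075 for SREBF2 and 0.064 for FDFT1, and SREBF1 (-0.036) and DHCR7 (-0.041) were lower. Without I13 replicate 2 alone, the unadjusted limma p was under 0.05 for SREBF1 (0.00637), DHCR7 (0.0134), FDFT1 (0.0194) and SREBF2 (0.0478), and without control replicate 3 alone for HMGCS1 and SREBF1. The shares of all genes at an unadjusted p under 0.05 in these fits were not computed. The pair holds 1 library of each group, so its differences have no replicate check, and whether the pair and the 4 libraries differ was not tested. The split was read from these same libraries, with the members among the genes used, so these counts are a description only.

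**Figure D2:**
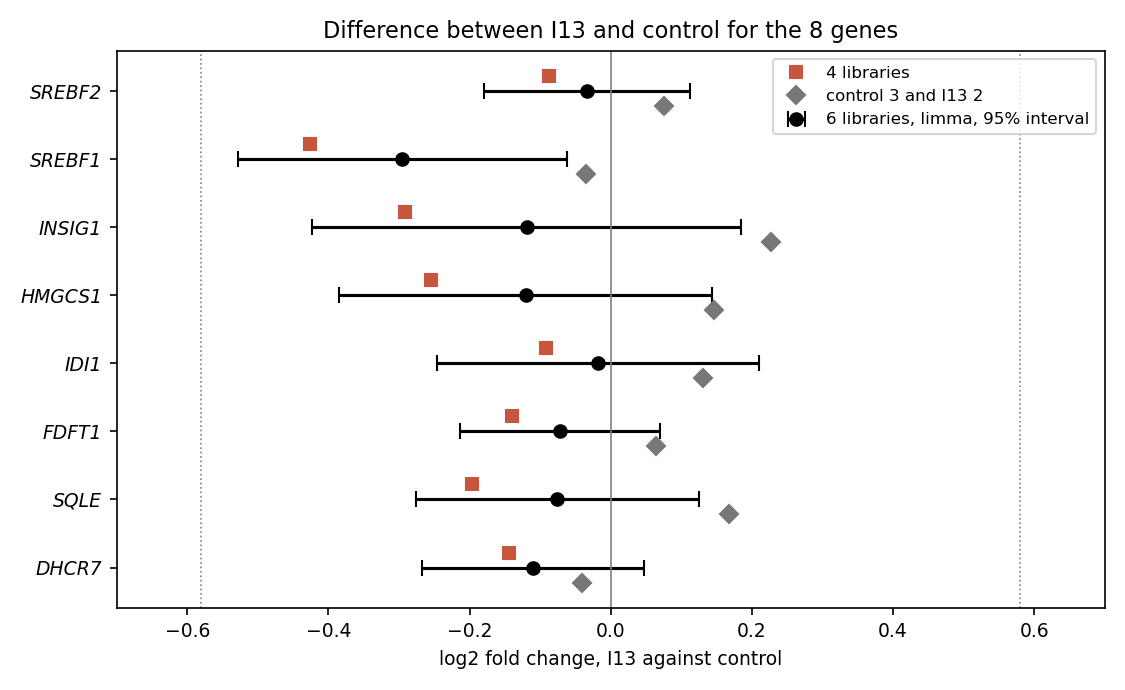
The log2 fold change of each gene, I13 against control (horizontal axis), over 6 libraries with its 95% interval from limma (black circles), within the 4 libraries (red squares) and within control replicate 3 and I13 replicate 2 (grey diamonds). Dotted lines mark the fold threshold of 0.58. The interval of SREBF1 lies below 0 and the other 7 intervals include 0, while the squares lie below 0 for all 8 genes.

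The members differed in how they varied among libraries, a grouping made after their values were seen. HMGCS1, IDI1, INSIG1 and SQLE were all lowest among the controls in replicate 3 and all highest in control replicate 2. Their coefficient of variation in the control libraries was 14.5% for HMGCS1, 14.2% for INSIG1, 13.1% for IDI1 and 9.33% for SQLE, against a median of 5.54% over the genes that averaged 10 FPKM or more. Counting error could account for 2.69% of the value of any of these at most. SREBF1 had the same order of control libraries, with a coefficient of variation of 6.74%. For SREBF2, FDFT1 and DHCR7 the coefficient was lower in the controls, 1.41%, 2.46% and 3.78%, and these genes were highest or second highest of all libraries in I13 replicate 2. Control replicate 3 was the lowest control for 5 of the 8 members, against 37.8% of all genes tested.

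**Figure D3:**
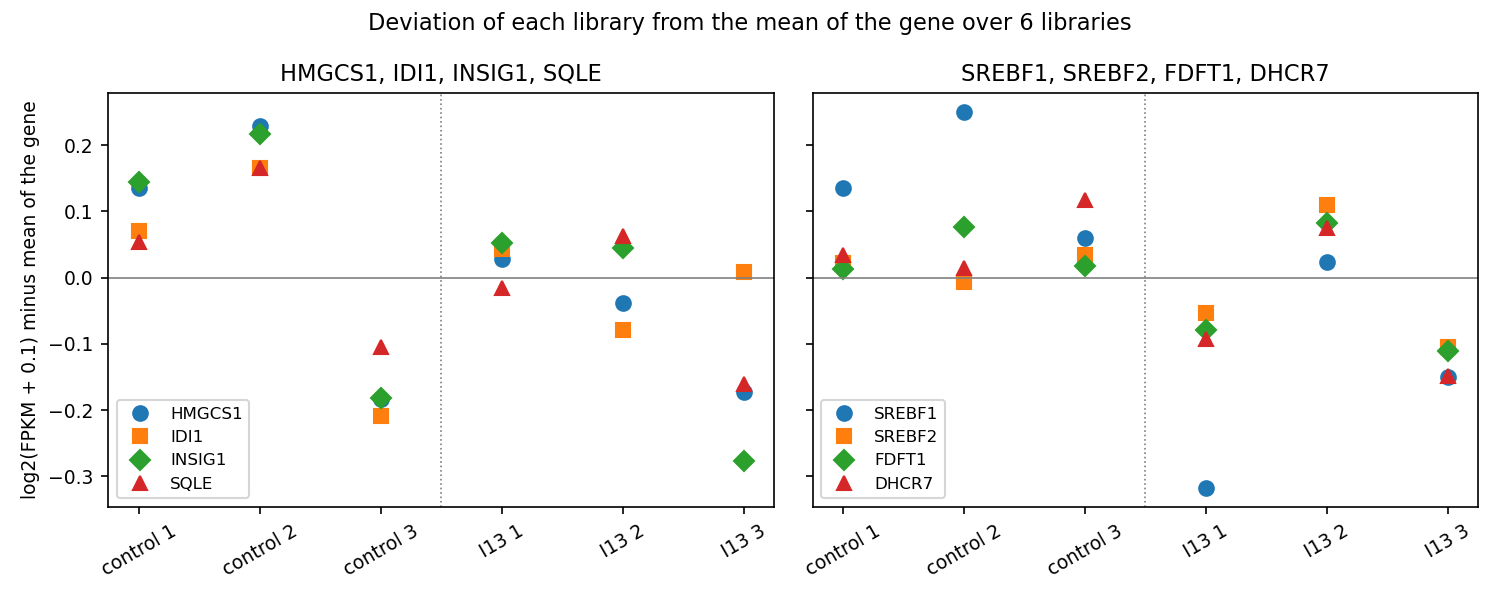
Deviation of log2(FPKM + 0.1) in each library from the mean of the gene over all 6 libraries (vertical axis), for HMGCS1, IDI1, INSIG1 and SQLE (left) and for SREBF1, SREBF2, FDFT1 and DHCR7 (right). The genes on the left lie between -0.21 and -0.10 in control replicate 3, where those on the right lie between 0.018 and 0.12.

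In order of mean level per length over the 6 libraries, the members were FDFT1 (82.8 FPKM), DHCR7 (68.0 FPKM), SREBF2 (64.1 FPKM), SQLE (56.0 FPKM), IDI1 (42.6 FPKM), INSIG1 (37.3 FPKM), HMGCS1 (21.8 FPKM) and SREBF1 (10.2 FPKM). This order held in each of the 6 libraries. The place of IDI1 above INSIG1 depends on its length of 3589 bases, since with its 4345 annotated bases its level would be lower. The ranges of DHCR7 and SREBF2, of SREBF2 and SQLE, and of IDI1 and INSIG1 overlapped across libraries, and those of the other neighbours did not. FDFT1 stood above 97.9% of the genes tested and SREBF1 above 78.2%.

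The rest of the pathway was examined with 23 genes of cholesterol synthesis, all of which were tested. Of these, 0 passed an unadjusted p of 0.05 by limma in either direction, and 0 an adjusted one. The fold change was below 0 for 15 and above 0 for 8, and the median on the log2 scale was -0.062. Without overlap, 1 of the 23 was lower and 0 were higher, where 9.52% of all genes did not overlap in either direction. The largest decrease was in ACAT2, the thiolase at the entry of the pathway, with 8.80 ± 0.58 FPKM (SD, n = 3) in control and 7.65 ± 0.777 FPKM (SD, n = 3) in I13 libraries and a log2 fold change of -0.20 (unadjusted p = 0.0622). The largest increase, 0.23, was in IDI2, a paralog of IDI1 that stood at 0.150 FPKM over the 6 libraries, with 2 to 5 fragments each. LBR, which acts late in the pathway, stood at 73.5 FPKM, between FDFT1 and DHCR7, while CYP51A1, the lanosterol demethylase, stood at 1.63 FPKM. Within the 4 libraries, 18 of the 23 fold changes were below 0 (45.4% of all genes tested), the median was -0.14 (0.017 for all genes), and 5 genes were lower at an unadjusted p under 0.05 (4.07% of all genes). The 23 genes, members among them, were measured in the same libraries and are not independent observations, and the split was read from these libraries.

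**Figure D4:**
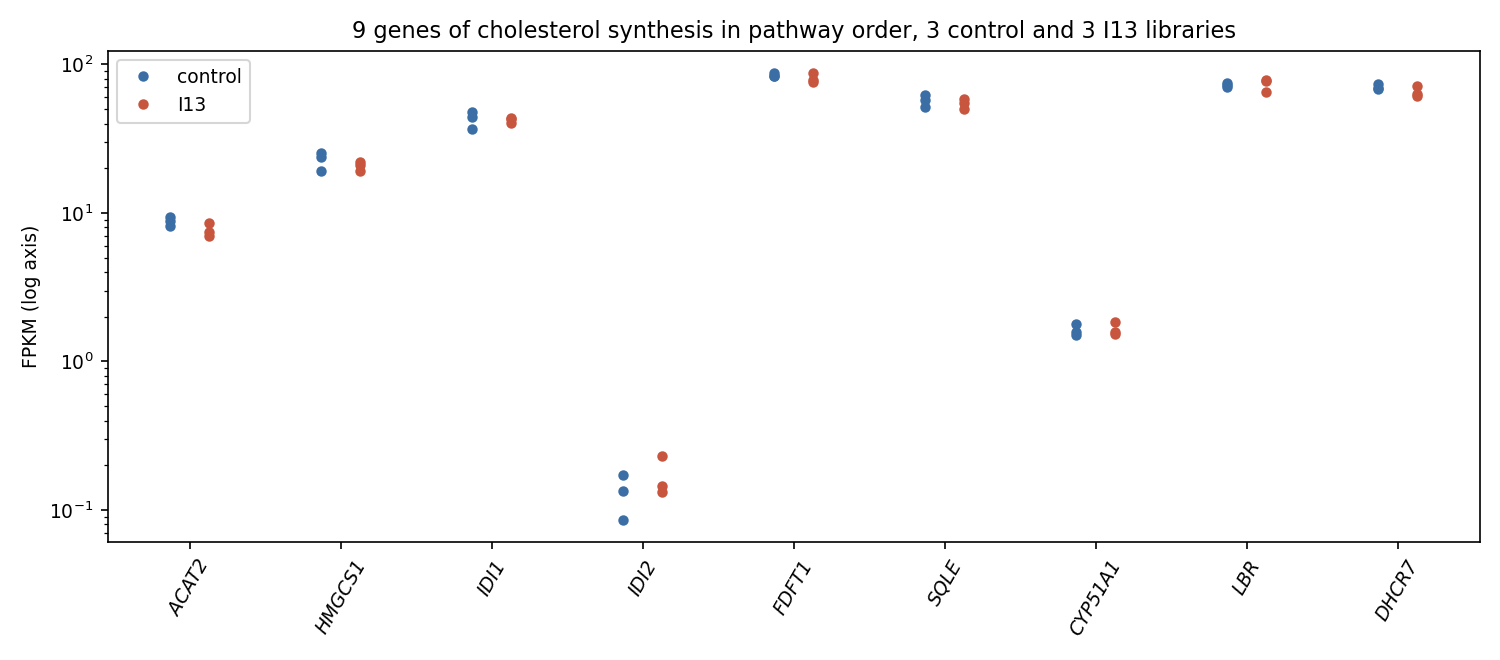
FPKM (vertical log axis) of the 9 genes of cholesterol synthesis named in the text, listed from acetyl-CoA to cholesterol, in the 3 control (blue) and the 3 I13 libraries (red). Levels differ between genes over a wide range, from a mean of 0.150 FPKM for IDI2 to 82.8 FPKM for FDFT1. The groups overlap for all 9 genes drawn, but not for 1 gene of the list that is not drawn.

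The list of SREBPs and their regulators holds 12 genes, and SREBF1 was the only one with an unadjusted p under 0.05. Of all genes tested, 5.14% passed in either direction. The fold change was below 0 for 6 and above 0 for 6, with a median of -0.014. SCAP, which escorts the SREBPs to the Golgi, stood at 32.9 ± 1.99 FPKM (SD, n = 3) in control and 32.2 ± 1.13 FPKM (SD, n = 3) in I13 libraries. MBTPS1, the first protease that cuts them, had a log2 fold change of 0.008.

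Among 12 genes of fatty acid synthesis that SREBP1 is known to activate, 11 had a fold change below 0 (48.2% of all genes tested) and 1 above, and the median on the log2 scale was -0.11, against 0.006 for all genes. ACACA and FADS2 were lower at an unadjusted p under 0.05 (2 of 12, against 2.59% of all genes tested), and 0 of 12 at an adjusted one. ACACA, the acetyl-CoA carboxylase, stood at 18.2, 17.5 and 15.8 FPKM in control replicates 1, 2 and 3 and at 15.1, 15.7 and 15.1 FPKM in I13 replicates 1, 2 and 3, without overlap. ACACA differed by -0.16 ± 0.065 (standard error) on the log2 scale, at a limma p of 0.0413 before and 0.947 after adjustment. FADS2, the delta-6 desaturase, had 38.4 ± 1.89 FPKM (SD, n = 3) in control and 33.2 ± 3.58 FPKM (SD, n = 3) in I13 libraries, a log2 difference of -0.21 ± 0.083 (standard error) at a limma p of 0.0364 before and 0.947 after adjustment. I13 replicate 2 lay within the control range. Both were above an unadjusted p of 0.05 in 5 of 6 fits that left out 1 library, with p-values of up to 0.117 for ACACA and 0.130 for FADS2, and with the replicate number as a block. For ACACA the exception was the fit without control replicate 3, and for FADS2 the fit without I13 replicate 2. Both genes were also above an unadjusted p of 0.05 with median scaling and by limma without a variance trend. Each was under it in 12 of 20 alternatives. FASN, the fatty acid synthase, stood at 127, 130 and 126 FPKM in control replicates 1, 2 and 3 and at 111, 138 and 110.1 FPKM in I13 replicates 1, 2 and 3. The largest increase of the list, 0.017, was in ELOVL6. In the 4 libraries 7 of the 12 genes were lower at an unadjusted p under 0.05, against 4.07% of all genes tested. Control replicate 3, left out there, was the lowest control for 9 of the 12, against 37.8% of all genes tested. The 12 genes were measured in the same libraries and share a regulator, so they are not independent observations.

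**Figure D5:**
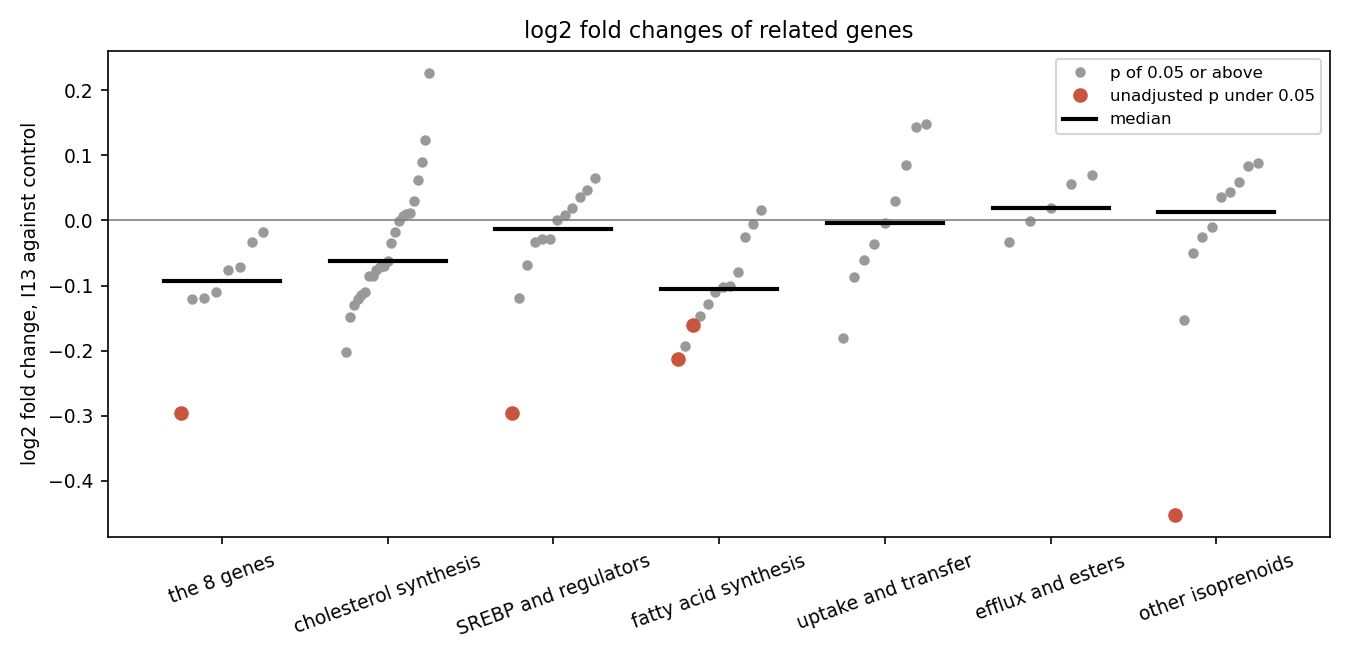
log2 fold changes (vertical axis) of the 8 genes and of 6 lists of related genes, each point a gene, with genes at an unadjusted p under 0.05 in red and the median of each list as a black bar. The medians lie between -0.11 for fatty acid synthesis and 0.019 for efflux and esters, and the red points are SREBF1 (drawn in 2 lists), ACACA, FADS2 and FNTB.

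The other lists held few differences. Of 9 genes of sterol uptake and transfer, 0 passed an unadjusted p of 0.05, and the median log2 fold change was -0.004 with the largest decrease in MYLIP (-0.18). The fold change was below 0 for 5 and above 0 for 4. Without overlap, 1 of the 9 was higher and 0 were lower, where 9.52% of all genes did not overlap in either direction. Within the 4 libraries, limma called 0 lower and 1 higher at an unadjusted p under 0.05. In that fit 4.07% of all genes were lower, and the share higher was not computed. Of 10 genes of efflux and esterification, 9 were in the table and 5 were tested, with a median of 0.019 and 0 at an unadjusted p under 0.05. The largest decrease there was in NR1H3 (-0.033) and the largest increase in APOE (0.070). ABCA1, ABCG1, SOAT2 and CYP27A1 were under the minimum mean of 0.1 FPKM, with 0 to 5 fragments per library. Of 10 genes of the other isoprenoid branches, 1 passed an unadjusted p of 0.05 by limma, where 5.14% of all genes tested passed in either direction. This was FNTB, the beta subunit of protein farnesyltransferase. It stood at 1.34, 1.14 and 1.27 FPKM in control replicates 1, 2 and 3 and at 0.907, 0.865 and 0.879 FPKM in I13 replicates 1, 2 and 3, from 53 to 91 fragments. All I13 values were below all control values, and the log2 difference was -0.45 ± 0.15 (standard error) at a limma p of 0.0167 before and 0.890 after adjustment. The unadjusted p was 0.0515 without control replicate 1, 0.0592 with a minimum mean of 1 FPKM and 0.0795 within the 4 libraries. FNTB shares exons with a readthrough gene, CHURC1-FNTB, so its count is uncertain. The largest increase of this list was in NUS1 (0.089). Within the 4 libraries, limma called 0 genes of this list lower and 2 higher at an unadjusted p under 0.05. There too 4.07% of all genes were lower, and the share higher was not computed.

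The pattern of the members over the 6 libraries was compared with that of 11509 other genes with a mean of at least 1 FPKM, as Pearson's r with the mean of the standardized values of the 8 genes. The 5 most alike were AL512625.2 (r = 0.990), AP3S2 (0.982), LMF1 (0.977), AC010542.5 (0.971) and AC091185.1 (0.969). With 6 libraries and 11509 genes this is a ranking only.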

How the data were processed

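RNA of Kasumi-1 cells was made into libraries with a stranded mRNA kit and sequenced on an Illumina instrument, in 3 control and 3 I13 libraries grouped by their labels. The authors deposited 1 table of FPKM per gene and library, used here as deposited. The submitters' processing notes name the build hg38 and Trimmomatic, HISAT2, Cufflinks and HTSeq, with no versions. The annotation release is not given in the sources used here.

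Identifiers were matched to GENCODE 29, which names 32244 of 32364. Fragments were recovered from FPKM with its exon lengths. Of 27002 genes above 0 with a length, 25773 (95.4%) came out whole, to within 0.01 of a fragment, in each of the 6 libraries. The other 1322 of the 27095 genes above 0 came out whole with another length. The fragments behind a gene set the precision of its value.

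Differences were tested on log2(FPKM + 0.1) in R 4.3.3 with limma 3.58.1 (linear model of 2 groups, variance trend, two-sided, no block) over the 18726 genes that averaged 0.1 FPKM or more, with Benjamini-Hochberg adjustment over all of them. Fold changes on this scale understate those of low genes. Calls used a p threshold of 0.05 and, where stated, a minimum log2 change of 0.58. Limma's voom on recovered fragments (mean of at least 10) was an alternative. Tested on data simulated for I13 against control, limma called 187 of 200 genes changed by 2-fold at the adjusted p among 18561 genes. It also called 27 unchanged genes. Of 200 changed by 1.25-fold among 18499 genes it called 1, and 157 at the unadjusted p. There it called 11 unchanged genes at the adjusted p, while voom called 92 of the 200 and 3 unchanged genes. The simulation gave every gene the same spread beyond counting noise (dispersion 0.00375). It held no library differences other than depth and the changed genes, so its power may not carry over to these libraries. Exact permutation tests used scipy 1.17.1.

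The members, lists and tests were chosen with earlier results of these data known. Named genes were the 8 members, list genes with an unadjusted p under 0.05, the largest increase and decrease of each list, and the 5 genes most like the members. Some genes that this rule names are not reported here. INSIG2, SCAP, MBTPS1, FASN, LBR, CYP51A1 and the overlapping genes were named for their roles or positions after their values were seen. Alternatives were other pseudocounts and filters, scaling by the median, quantile normalization, a replicate block, leaving out each library, other variance settings, voom, and a term for or removal of 2 libraries.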

Additional observations from a re-analysis of the deposited data

How the results depend on the processing

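The log2 fold changes of SREBF1, FDFT1, SQLE, DHCR7, HMGCS1 and INSIG1 stayed below 0 under every alternative run. That of IDI1 was 0.013 without control replicate 1, 0.061 without control replicate 2 and 0.017 without I13 replicate 2, and it fell to -0.127 without control replicate 3. That of SREBF2 was between -0.096 (without I13 replicate 2) and 0.011 (without I13 replicate 3). With each library left out in turn, between 0 and 4 members had an unadjusted p under 0.05, as did between 0 and 14 of all list genes (4 with all libraries). The 4 members were those without I13 replicate 2, and the count was 2 without control replicate 3 and 0 without any 1 of the other 4 libraries. The number of members was 2 with a term for control replicate 3 and I13 replicate 2, by limma and by voom, and 3 within the other 4 libraries. For the list genes it was 8 by limma and 12 by voom with this term and 16 within the 4 libraries, and 2 with median scaling and 2 without a trend. Within the 4 libraries 4.07% of all genes were lower at an unadjusted p under 0.05 by limma. Such shares were not computed with a library left out, with the term or the replicate block, with median scaling or without a trend. At the adjusted p, 1 member (SREBF1) passed by voom with this term, an alternative added with the values known, and 0 under all other settings.

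Over all genes, 445 met both the unadjusted p and the fold criterion, 134 with a pseudocount of 1, 119 with a minimum mean FPKM of 1, 204 by voom, 203 by voom with the term and 204 by voom with the replicate block. At the adjusted p, limma called 0, limma without a trend 9, voom 5, voom with the term 87 and voom with the replicate block 23. The cause of these changes was not tested.

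Deviations from the group means of same-numbered libraries correlated at 0.32, -0.38 and -0.30 across genes. Control replicate 3 and I13 replicate 2, which stood apart from the other libraries, bear different numbers and weigh on these values. They therefore cannot decide whether the replicate numbers pair the libraries. With the replicate block, SREBF1 kept a log2 fold change of -0.30 (unadjusted p = 0.0152), 1 member and 2 list genes had an unadjusted p under 0.05, and 506 of all genes met both criteria. The unadjusted p of SREBF1 was under 0.05 in 16 of 20 alternatives.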
